A study of Rattus norvegicus with 12 samples.

Results

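The genes described here make, store, take up, break down and sense serotonin: tryptophan hydroxylases Tph1 and Tph2, aromatic L-amino acid decarboxylase Ddc, the vesicular carrier Slc18a2, the plasma membrane serotonin transporter Slc6a4, the monoamine oxidases Maoa and Maob, and the receptors Htr1d, Htr2b and Htr7. They were taken as the probe sets of an expression array that carried one of these 10 symbols alone, each chosen by the highest mean intensity over all 12 arrays where a gene had several, with dim probe sets kept. Each of the 10 genes had 1 such probe set, so the intensity made no difference, and they were 10 of the 14506 genes with a probe set of their own. The list was drawn up with the rise of Tph1 under 17β-estradiol already known, so that the Tph1 values in E2 rats against vehicle rats are a description and carry no test.

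RNA came from whole mammary glands of ovariectomized Lewis rats, and each array held the RNA of 1 rat, with 3 rats in each of 4 groups. The rats were about 10 weeks old at ovariectomy and, 14 days later, received 3 subcutaneous treatments 24 hours apart. Glands were taken 24 hours after the last treatment. The groups were E2 + 3-MC (17β-estradiol, E2, at 4 μg/kg per day with 3-methylcholanthrene, 3-MC, at 15 mg/kg per day), E2 alone at the same dose, 3-MC alone at the same dose, and the vehicle of DMSO and castor oil alone. E2 is the main ovarian estrogen and 3-MC is a polycyclic aromatic hydrocarbon that activates the aryl hydrocarbon receptor (AHR). The comparisons asked what each compound did alone, what they did together, and whether 3-MC changed the response to E2. All groups lacked ovaries, so vehicle rats stand for a gland without ovarian hormone, and whole-gland RNA mixes epithelium, fat, vessels, immune cells and whatever adjoining muscle was dissected with the gland.

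Serotonin is made from tryptophan in a pair of steps, hydroxylation by a tryptophan hydroxylase, which sets the rate, and decarboxylation by Ddc. Tph1 is the hydroxylase of peripheral tissues and Tph2 that of neurons. In rodent and other mammalian mammary glands, epithelial cells make serotonin, which acts locally through receptors as a feedback signal on milk secretion and on the epithelium, while monoamine oxidases inactivate it after uptake by Slc6a4.

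The promoters of the genes with a called or shared pattern, Tph1, Maob and Maoa, are shown because E2 acts through estrogen receptors that bind AGGTCA, one arm of the estrogen response element, and 3-MC through AHR, which binds GCGTG with its partner ARNT. Sequences are RefSeq's on build GRCr8, each running 5′ to 3′ on the gene's strand from 250 bases before to 50 bases after the annotated start, and capitals mark AGGTCA or GCGTG on either strand.
Tph1, chr1:106314579-106314878, minus strand: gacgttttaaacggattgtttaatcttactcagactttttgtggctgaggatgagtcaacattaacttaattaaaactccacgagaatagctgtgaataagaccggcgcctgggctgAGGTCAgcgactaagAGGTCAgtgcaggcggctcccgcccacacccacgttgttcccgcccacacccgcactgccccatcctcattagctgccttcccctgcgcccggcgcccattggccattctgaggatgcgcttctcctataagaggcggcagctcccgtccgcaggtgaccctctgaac
Maob, chrX:8490155-8490454, plus strand: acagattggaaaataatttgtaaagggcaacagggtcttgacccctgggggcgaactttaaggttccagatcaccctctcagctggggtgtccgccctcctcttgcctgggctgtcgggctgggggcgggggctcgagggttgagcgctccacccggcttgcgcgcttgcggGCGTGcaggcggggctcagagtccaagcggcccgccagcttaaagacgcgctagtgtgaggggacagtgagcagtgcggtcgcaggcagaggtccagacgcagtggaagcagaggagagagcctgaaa
Maoa, chrX:8681323-8681622, minus strand: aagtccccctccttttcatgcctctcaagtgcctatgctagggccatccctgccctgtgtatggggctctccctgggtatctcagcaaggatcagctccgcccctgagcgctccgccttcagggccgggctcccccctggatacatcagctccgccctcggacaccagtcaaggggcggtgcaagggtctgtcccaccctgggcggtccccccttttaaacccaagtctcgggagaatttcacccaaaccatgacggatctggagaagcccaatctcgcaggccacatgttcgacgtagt
The Tph1 promoter held 2 copies of AGGTCA, which began 133 and 118 bases before the start, and no GCGTG. Of 33469 rat promoters of the same length, 1.81% held 2 or more copies of AGGTCA on either strand, 16.2% held at least 1, and 29.7% held GCGTG. The full palindrome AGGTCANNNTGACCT, which contains AGGTCA, was in 3 of all promoters and in none of the serotonin genes. The Maob promoter held no AGGTCA and 1 GCGTG, 78 bases before the start, and the Maoa promoter held neither. Maob and Maoa lie next to each other on chromosome X, 21173 bases apart. A promoter was matched for 9 of the 10 genes. Among the others, AGGTCA was found only for Ddc and GCGTG only for Htr7 and Slc18a2. Such matches describe letters and do not show binding.

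Intensities below are the deposited linear values, which can be compared between rats for 1 probe set but not between probe sets. Array medians lay between 85.7 and 109.5, and any 2 arrays correlated at 0.952 to 0.988 over all probe sets. Changes are differences of log2(intensity + 16), and folds are these differences taken off the log2 scale. The addition of 16 makes both smaller than those of the intensities themselves, most of all where a group is dim. The test was limma, a linear model with moderated variances fitted to all probe sets, and a call needed a change of 1.5-fold or more and a Benjamini-Hochberg adjusted p below 0.05 over the 23371 probe sets above the dimmest 20% of 29214. Tph2 and Ddc were below that limit, which left 8 serotonin genes tested. In bulk tissue, fewer cells of a type and less RNA per cell cannot be told apart.

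With E2, the transcript of the rate-setting enzyme of peripheral serotonin synthesis, Tph1, was higher, that of the degrading enzyme Maob was lower, and the other 6 tested genes did not pass. Those 2 of 8 calls for E2 against vehicle rats stood beside a background in which 1.58% of all probe sets passed, 303 higher and 67 lower. The known rise of Tph1 is in that count, where it is a description and not a test. The members' median log2 change was -0.08 beside 0.02 over all probe sets. E2 + 3-MC against vehicle rats gave 1 of 8, Tph1, beside 0.163% of all probe sets, with medians of 0.06 and 0.07. That comparison uses the same vehicle rats as the known rise, so its Tph1 call is not independent of it. E2 + 3-MC against 3-MC rats gave 1 of 8, again Tph1, beside 0.111%, with medians of -0.03 and 0.02.

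Neither comparison that isolates 3-MC gave a call among the serotonin genes. For 3-MC against vehicle rats, 0 of 8 serotonin genes and 0% of all probe sets passed in limma, and at an unadjusted p under 0.05 there were 0 of the 8 and 991 of all. For E2 + 3-MC against E2 rats, 0 of 8 and 0% passed in limma, and at an unadjusted p under 0.05 there were 1 of the 8, Htr7, and 2049 of all. The count over all probe sets in that comparison depended on the fit, with 359 passing when limma used the 2 groups alone and 56 with a score of macrophage markers as a covariate, none of them a serotonin gene. The interaction likewise gave 0 of 8 and 0%, with 0 of the 8 and 1032 of all at an unadjusted p under 0.05. The methods' t-test also called none of the 8 genes in the first and second of these.

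Tph1 was high in every rat that received E2 and low in every rat that did not. Its intensity was 286, 243 and 434 in the E2 + 3-MC rats and 310.3, 313 and 315 in the E2 rats. It was 92.9, 61.3 and 55.2 in the 3-MC rats and 62.3, 48.5 and 49.9 in the vehicle rats. The lowest E2-treated gland lay well above the highest gland without E2, and neither E2 group overlapped either group without it. The means were 321 ± 100.4 in E2 + 3-MC rats, 313 ± 2.54 in E2 rats, 69.8 ± 20.3 in 3-MC rats and 53.6 ± 7.57 in vehicle rats (SD, n = 3 each). The spread among E2 + 3-MC rats, with a coefficient of variation of 31.3% against 0.812% among E2 rats, came mainly from rat 3 of that group, the highest of all 12.

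**Figure D1:**
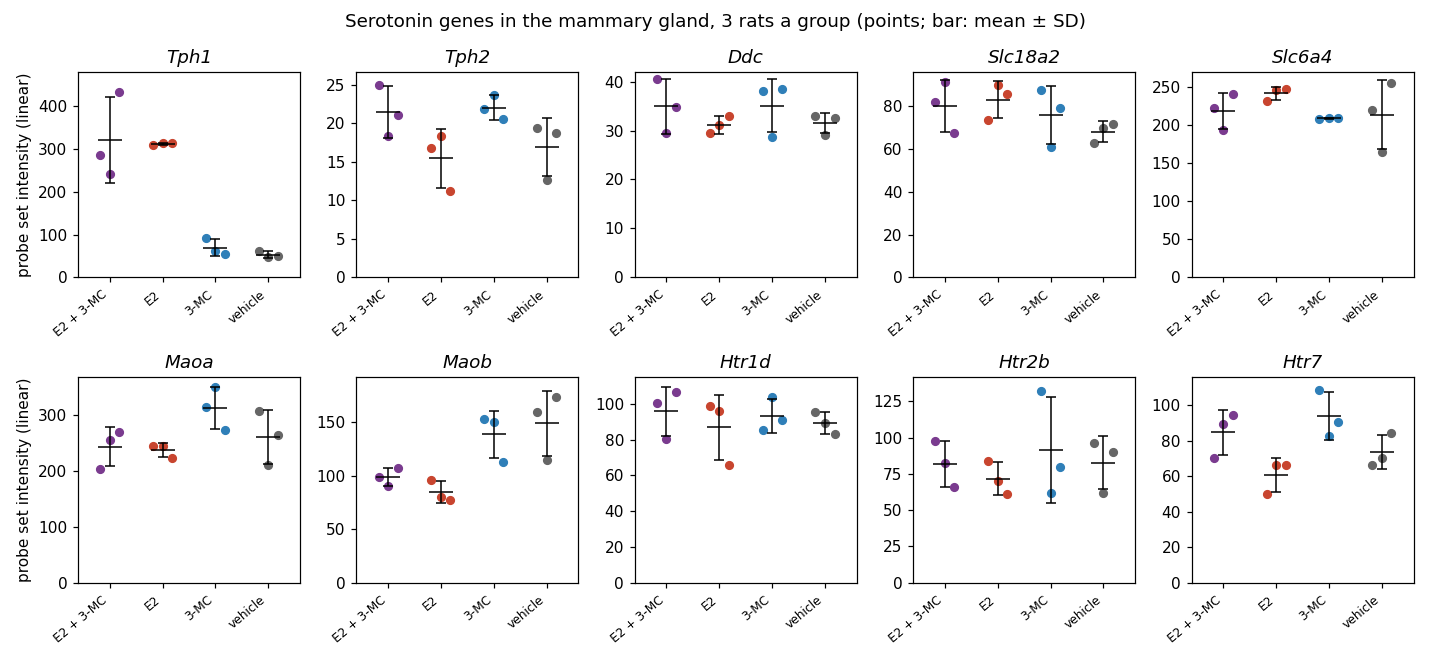
Linear probe set intensity of each serotonin gene in each of the 12 rats, with 1 panel per gene, points for rats 1 to 3 from left to right in each group, and bars for the mean ± SD. Tph1 lies between 243 and 434 in the 6 rats given E2 and between 48.5 and 92.9 in the other 6, and Maob lies between 77.5 and 107 in the rats given E2 and between 113 and 173 in the others.

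Set against vehicle, Tph1 was 2.25 ± 0.200 higher in E2 rats on the log2 scale (SE), a 4.75-fold difference with a 95% interval of 3.52 to 6.39. In E2 + 3-MC rats it was 2.24 ± 0.200 higher than in the same vehicle rats, or 4.73-fold. Earlier results of these data were known when the genes were chosen, so the next test is not independent of that choice. The E2 + 3-MC and 3-MC rats take no part in E2 against vehicle, though 1 model gave the variance for all groups. Between these, Tph1 was 1.96 ± 0.200 higher on the log2 scale in E2 + 3-MC rats than in 3-MC rats, 3.89-fold with an interval of 2.89 to 5.24, and passed (limma, adjusted p = 0.00115). The call was lost with the methods' t-test, whose adjusted p was 0.993.

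Tph1 passed in neither comparison of 3-MC. In E2 + 3-MC rats Tph1 differed from E2 rats by -0.01 on the log2 scale (95% interval -0.44 to 0.42, limma, adjusted p = 0.996). In 3-MC rats it stood 0.28 above vehicle rats (interval -0.15 to 0.71, adjusted p = 0.920), with rat 1 of the 3-MC group at 92.9 above every vehicle rat and the groups overlapping. Each 3-MC rat was above the vehicle rat of the same number (92.9 and 62.3, 61.3 and 48.5, 55.2 and 49.9). The labels do not say that these numbers pair rats, and a pairing was taken from the expression values alone. With the numbers as pairs in the 6 arrays the unadjusted p was 0.0588 and the adjusted p 0.564 in limma. The pairs rest on these same arrays, so both p-values are a description. The interaction, the E2 difference with 3-MC minus that without, was -0.29 (interval -0.90 to 0.32, limma, adjusted p = 0.982). The interval for E2 + 3-MC against E2 reaches a fold of 0.740 at its lower end. A fall of that size lies within the interval.

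A point of reference for that difference is the set of 303 probe sets that passed as higher in E2 rats, of which Tph1 ranked 21 by log2 change. Their median difference between E2 + 3-MC and E2 rats was -0.48, with quartiles of -0.69 and -0.30, where Tph1 had -0.01. These probe sets were chosen for high values in the same E2 rats that enter the difference, which by itself favours lower values in the other group, so the median has no test.

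**Figure D2:**
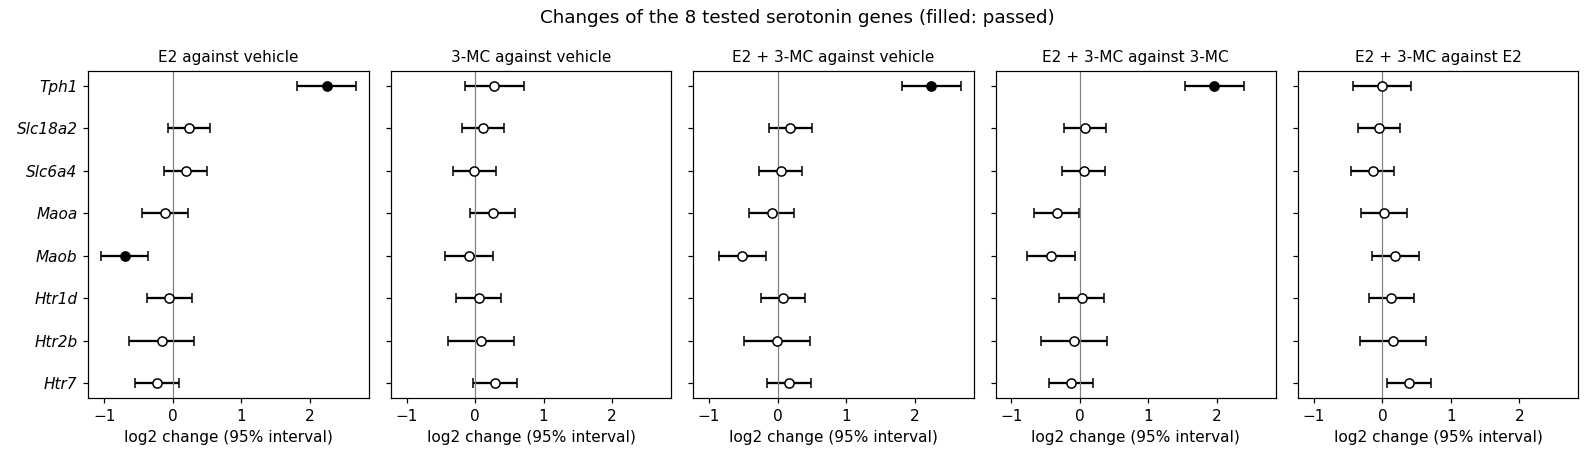
Log2 change of the 8 tested serotonin genes in 5 comparisons (columns), with points for the limma estimate, bars for its 95% interval, and filled points for probe sets that passed. Tph1 is filled in each of the 3 comparisons of a group with E2 against a group without it. For E2 against vehicle its point is a description. Maob is filled for E2 against vehicle at -0.70, and no point is filled for 3-MC against vehicle or for E2 + 3-MC against E2.

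The other enzymes of synthesis were near the bottom of the array's range. Tph2, the neuronal hydroxylase, read 25.0, 18.3 and 21.1 in E2 + 3-MC rats, 16.7, 18.4 and 11.1 in E2 rats, 21.8, 23.7 and 20.5 in 3-MC rats, and 19.3, 12.6 and 18.7 in vehicle rats. Its mean over the 12 arrays sat at the 7.79th percentile of all probe sets, and in limma without the limit on dim probe sets Tph2 passed in no comparison. The 3-MC rats lay above the vehicle rats at this dim level, by 0.21 on the log2 scale (interval -0.07 to 0.50), and the E2 rats overlapped the vehicle rats. Ddc, which acts on the product of either hydroxylase, read 40.5, 29.5 and 34.7 in E2 + 3-MC rats, 29.4, 31.1 and 33.0 in E2 rats, 38.1, 28.8 and 38.4 in 3-MC rats, and 32.9, 29.1 and 32.5 in vehicle rats. All 4 groups of Ddc overlapped, and the difference of E2 from vehicle rats was -0.01 (interval -0.28 to 0.26, limma without the limit). For Tph2 the difference of E2 from vehicle rats was -0.07 (interval -0.35 to 0.22, limma without the limit). Neither probe set thus showed a rise of the size seen for Tph1. Both were so dim that smaller changes could be missed, and whether they respond to their transcripts at this level was not tested.

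Slc18a2 loads serotonin and other monoamines into vesicles. It read 82.2, 91.3 and 67.3 in E2 + 3-MC rats, 73.4, 89.8 and 86.0 in E2 rats, 87.4, 61.0 and 79.1 in 3-MC rats, and 62.8, 69.8 and 71.8 in vehicle rats. The E2 rats lay just above the vehicle rats without overlap, but the log2 difference of 0.23 (interval -0.08 to 0.54) did not pass in limma (adjusted p = 0.601). Slc6a4, which returns released serotonin to cells, read 223, 194 and 241 in E2 + 3-MC rats, 233, 246 and 248 in E2 rats, 209, 209.8 and 209 in 3-MC rats, and 220.2, 166 and 256 in vehicle rats. Every pair of treated and vehicle groups of Slc6a4 overlapped, and its difference between E2 and vehicle rats was 0.19 (interval -0.12 to 0.50, limma, adjusted p = 0.706).

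Of the enzymes of breakdown, Maob was lower with E2. Maob, a mitochondrial monoamine oxidase, read 98.4, 89.9 and 107 in E2 + 3-MC rats and 96.2, 80.1 and 77.5 in E2 rats, against 152, 150.1 and 113 in 3-MC rats and 159, 115 and 173 in vehicle rats. As with Tph1, the 6 rats with E2 and the 6 without did not overlap, but the gap was narrow, from 107 to 113. In E2 rats Maob was 1.63-fold lower than in vehicle rats, a log2 change of -0.70 ± 0.161 (SE), and passed (limma, adjusted p = 0.0456). That call was close to its threshold and was lost, with an adjusted p of up to 0.203, in 8 of the 12 fits that left out 1 rat: vehicle rat 1 or 3, any E2 rat or any E2 + 3-MC rat. With 3-MC present the difference had the same sign, -0.42 in E2 + 3-MC against 3-MC rats (interval -0.77 to -0.08, limma, adjusted p = 0.898) and -0.51 in E2 + 3-MC against vehicle rats (adjusted p = 0.389), and did not pass. The interaction for Maob was 0.28 (interval -0.21 to 0.77, limma, adjusted p = 0.982).

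Maoa, the oxidase with the higher preference for serotonin, read 204, 257 and 271 in E2 + 3-MC rats, 246, 245 and 224 in E2 rats, 314, 350.2 and 274 in 3-MC rats, and 307, 211 and 265 in vehicle rats. Its E2 rats fell within the range of the vehicle rats, and the log2 difference was -0.11 (interval -0.45 to 0.22, limma, adjusted p = 0.868). The 3-MC rats held 2 of the 3 highest of all Maoa values and did not overlap the E2 + 3-MC rats, where the log2 difference of E2 + 3-MC from 3-MC rats was -0.34 (limma, unadjusted p = 0.0453, adjusted p = 0.964). Maoa and Maob varied together over the 12 arrays with Pearson's r = 0.665, and with r = 0.683 after each group's mean was taken away, as a description over arrays that share tissue composition.

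None of the 3 receptors passed in any comparison. Htr1d, a receptor that lowers cyclic AMP, read 100.4, 80.2 and 107 in E2 + 3-MC rats, 99.1, 95.9 and 66.0 in E2 rats, 85.2, 104 and 91.2 in 3-MC rats, and 95.6, 89.4 and 83.4 in vehicle rats. Htr2b, which signals through phospholipase C, read 97.3, 82.6 and 65.6 in E2 + 3-MC rats, 83.5, 70.2 and 60.9 in E2 rats, 132, 61.9 and 79.4 in 3-MC rats, and 96.3, 61.9 and 89.8 in vehicle rats. The groups overlapped for both, with E2 against vehicle differences of -0.05 for Htr1d (interval -0.38 to 0.28) and -0.16 for Htr2b (interval -0.64 to 0.32) in limma.

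Htr7, which raises cyclic AMP and in human mammary epithelium acts on cell junctions, was lowest in E2 rats. It read 70.0, 89.5 and 94.3 in E2 + 3-MC rats and 49.7, 66.5 and 66.3 in E2 rats, against 109, 82.6 and 90.4 in 3-MC rats and 66.2, 70.2 and 84.2 in vehicle rats. E2 + 3-MC rats did not overlap E2 rats, with a log2 difference of 0.39 (interval 0.07 to 0.71) whose unadjusted p of 0.0218 became 0.509 after adjustment in limma. Macrophage markers moved with Htr7. Their score, the middle log2 deviation of 7 marker genes from vehicle rats, was -0.02 to 0.74 in E2 + 3-MC rats and -0.58 to -0.26 in E2 rats. It was -0.28 to 0.94 in 3-MC rats and -0.62 to 0.76 in vehicle rats. The score correlated with Htr7 at r = 0.830 over the 12 arrays and 0.691 with group means taken away. With that score as a covariate, chosen after seeing the data, the Htr7 difference between E2 + 3-MC and E2 rats was 0.18 (limma, adjusted p = 0.981). The score itself separated these groups, so that fit cannot tell treatment and macrophage content apart. The part of macrophages in the Htr7 values was not tested. 3-MC against vehicle rats gave 0.29 (interval -0.03 to 0.62, limma, adjusted p = 0.920).

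Around these genes, 56 others were listed, of tryptophan and serotonin handling, other receptors, signal coupling, regulation of tryptophan hydroxylase and mammary targets. Of these, 49 had a probe set and 42 were above the limit on dim probe sets. Of the 42, Aadat and Prlr passed in E2 against vehicle and in E2 + 3-MC against vehicle rats. Aadat also passed in E2 + 3-MC against 3-MC rats, and no others passed. In the same comparisons 1.58%, 0.163% and 0.111% of all probe sets passed. Prlr came from the list that holds mammary targets, and the authors had already reported it as raised by E2 on these arrays. The lists were chosen with earlier results known, so the Prlr calls are not independent of that choice. None of the 5 tested genes of tryptophan uptake, 5 of the tetrahydrobiopterin cofactor that tryptophan hydroxylase needs, 6 of other carriers, 8 of other receptors, or 4 of later breakdown and melatonin synthesis passed in any of the 6 comparisons, and lists of this size would hold few or no calls at those shares.

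Aadat encodes an aminotransferase that turns kynurenine, the main product of tryptophan breakdown, into kynurenic acid. It read 639, 432 and 510.3 in E2 + 3-MC rats and 428, 499 and 614 in E2 rats, against 277, 236 and 172 in 3-MC rats and 209, 183 and 165 in vehicle rats. The 6 rats with E2 lay above the 6 without it, as for Tph1. It was 1.38 ± 0.192 higher on the log2 scale (SE) in E2 than in vehicle rats, 2.61-fold (limma, adjusted p = 0.00359), and 1.16 ± 0.192 higher in E2 + 3-MC than in 3-MC rats (adjusted p = 0.0356). Between E2 + 3-MC and E2 rats it differed by 0.03 (interval -0.38 to 0.45). Of the 4 other tested kynurenine genes none passed, and the enzymes that open this route, Ido1 and Tdo2, were below the limit on dim probe sets.

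Prlr, the prolactin receptor through which milk genes are switched on, had a mean intensity of 464 ± 86.3 in E2 + 3-MC rats, 660 ± 64.0 in E2 rats, 255 ± 46.6 in 3-MC rats and 189 ± 32.3 in vehicle rats (SD, n = 3 each). It rose in E2 against vehicle rats by 1.73 on the log2 scale (SE 0.176, limma, adjusted p = 2.11e-04), and in E2 + 3-MC against vehicle rats by 1.22 (adjusted p = 0.00892). Its difference between E2 + 3-MC and E2 rats was -0.51, without overlap and with an adjusted p of 0.480.

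**Figure D3:**
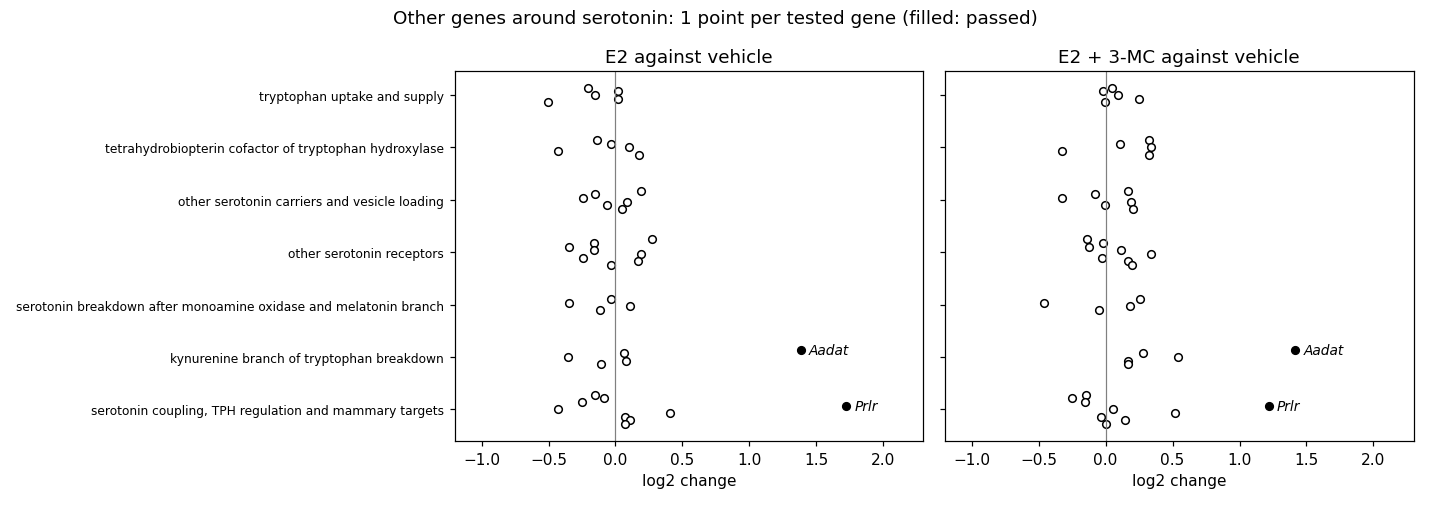
Log2 change of each tested gene (1 point) in 7 lists of genes around serotonin, for E2 against vehicle on the left and E2 + 3-MC against vehicle on the right, with filled points for genes that passed in limma. Only Aadat (1.38 and 1.42) and Prlr (1.73 and 1.22) are filled.

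The brightest genes of the uptake, cofactor and receptor lists did not pass. In the uptake list, Slc3a2, the heavy chain of amino acid carriers, averaged 944 ± 64.3 in E2 + 3-MC, 972 ± 28.4 in E2, 976 ± 92.8 in 3-MC and 966 ± 157 in vehicle rats, and the carrier Slc7a8 gave -0.50 in E2 against vehicle rats (limma, adjusted p = 0.367). In the cofactor list, Qdpr, which regenerates tetrahydrobiopterin, averaged 334 ± 31.5 in E2 + 3-MC and 311 ± 32.3 in E2 rats, against 449 ± 59.2 in 3-MC and 423 ± 40.4 in vehicle rats, without overlap between E2 and vehicle rats but at -0.43 on the log2 scale it stayed short of the threshold (limma, adjusted p = 0.174). Of the other receptors, Htr1b, a relative of Htr1d, averaged 160 ± 30.2 in E2 + 3-MC, 216 ± 14.1 in E2, 168 ± 45.8 in 3-MC and 176 ± 9.35 in vehicle rats (SD, n = 3 each). Its E2 rats, at 208 to 232, lay above the vehicle rats (166 to 184) and the E2 + 3-MC rats (125 to 181) but overlapped the 3-MC rats.

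The genes most like Tph1 over the 12 arrays, by Pearson's r among 12420 genes, were Areg (0.985), Pgr (0.973), Aadat (0.959), Csn2 (0.959) and Dlgap5l2 (0.958). Areg encodes the growth factor amphiregulin, Pgr the progesterone receptor and Csn2 beta-casein. Dlgap5l2 averaged 92.4 in E2 + 3-MC and 119 in E2 rats, against 6.30 in 3-MC and 9.01 in vehicle rats. Without E2 it was far below the intensity of 35.5 that marks the limit on dim probe sets, which it cleared only through the rats with E2. With group means taken away, r was 0.745 for Areg, 0.661 for Csn2, 0.478 for Aadat, 0.410 for Pgr and 0.324 for Dlgap5l2. The r over all arrays includes the split between rats with and without E2, which the r within groups leaves out. Both use the arrays on which the genes were chosen. In E2 + 3-MC against E2 rats the log2 differences were -0.01 for Tph1, 0.03 for Aadat, -0.27 for Dlgap5l2, -0.34 for Areg, -0.52 for Csn2 and -0.56 for Pgr, none of which passed.

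**Figure D4:**
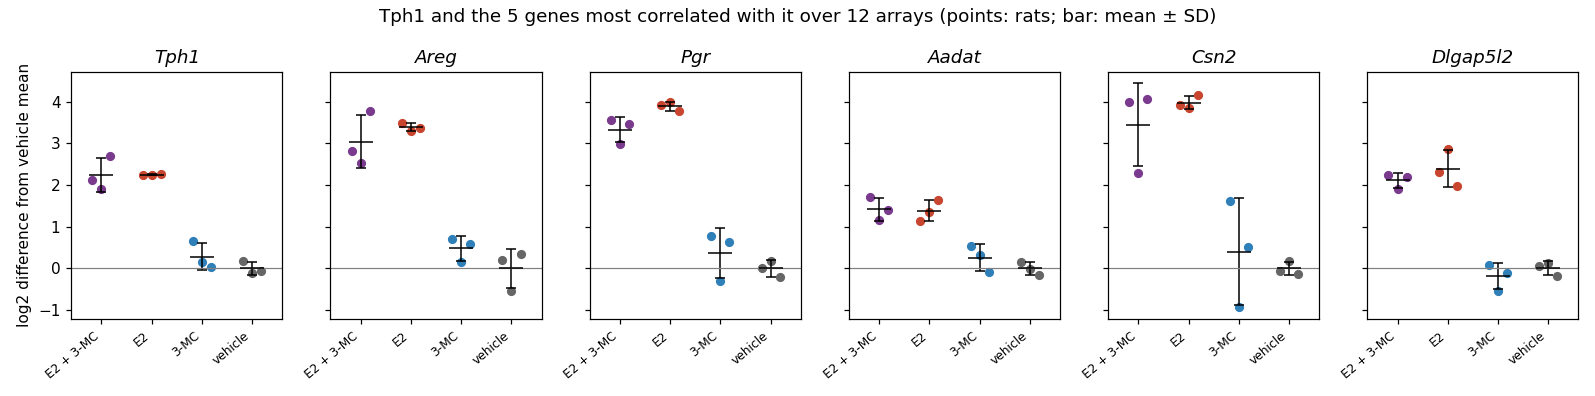
Difference of log2(intensity + 16) from the vehicle mean for Tph1 and the 5 genes most correlated with it, with points for rats 1 to 3 from left to right in each group and bars for the mean ± SD. The E2 rats average 2.25 for Tph1 and the E2 + 3-MC rats 2.24, and for Pgr the E2 rats average 3.89 and the E2 + 3-MC rats 3.33.

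Areg, chosen for its r with Tph1 over these same arrays, shared the order of the E2 + 3-MC rats, which that r partly reflects. Its intensity was 356, 288 and 697 in E2 + 3-MC rats and 572, 498 and 526 in E2 rats, against 70.0, 42.1 and 62.2 in 3-MC rats and 44.1, 20.1 and 50.4 in vehicle rats. Rat 3 of the E2 + 3-MC group was the highest of all 12 for both genes, and rat 2 the lowest of its group. For Maob the most similar genes were Gap43 (r = 0.975, and 0.931 with group means taken away), Cadm3 (0.949 and 0.778), Agpat2 (0.937 and 0.802), Acss2 (0.931 and 0.756) and Cd34 (0.921 and 0.731). Gap43 is a growth-associated protein of axons, Agpat2 and Acss2 are enzymes of lipid synthesis and acetate use, and Cd34 is a surface protein of vessels and progenitor cells. Gap43 read 105, 84.1 and 121 in E2 + 3-MC rats and 112, 78.6 and 72.0 in E2 rats, against 212, 158 and 133 in 3-MC rats and 213, 117 and 213 in vehicle rats.

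Cell types that hold these genes were followed through marker lists, each scored per rat by the middle log2 deviation of its genes from the mean of vehicle rats. The 12 luminal epithelial markers scored 0.14 to 0.49 in E2 + 3-MC rats, 0.54 to 0.85 in E2 rats, 0.01 to 0.32 in 3-MC rats and -0.03 to 0.16 in vehicle rats. In E2 against vehicle rats 6 of the 12 passed as higher (Krt18, Cdh1, Cldn3, Cldn7, Esrp1 and Muc1), where 1.58% of all probe sets passed in either direction. In E2 + 3-MC against E2 rats limma called 0 of the 12 and 0% of all probe sets. An unadjusted p below 0.05 was found for 6 of the 12, beside 8.77% of all. The median log2 change of the 12 was -0.41 beside 0.05 over all probe sets. Tph1 correlated with the luminal score at r = 0.824 over 12 arrays and 0.560 with group means taken away. The part of epithelial content in the Tph1 values was not tested.

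Mast cells, which in rodents store serotonin and express Tph1, had no marker that passed. Their score ran from -0.15 to 0.32 in E2 + 3-MC rats, -0.03 to 0.04 in E2 rats, -0.06 to 0.22 in 3-MC rats and -0.20 to 0.07 in vehicle rats, with 11 markers tested in each comparison. Over all probe sets at most 1.58% passed in a comparison, and a list of this size would hold few or no calls. The mast cell protease Cpa3 averaged 500 ± 203 in E2 + 3-MC, 559 ± 125 in E2, 658 ± 94.8 in 3-MC and 583 ± 78.5 in vehicle rats (SD, n = 3 each). With group means taken away, Tph1 correlated with the mast cell score at r = 0.874 and with the endothelial score at 0.843, against 0.145 and -0.57 over all 12 arrays. Rat 3 of the E2 + 3-MC group had the highest mast cell score as well as the highest Tph1. The part of these cells in the differences between rats of 1 group was not tested.

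**Figure D5:**
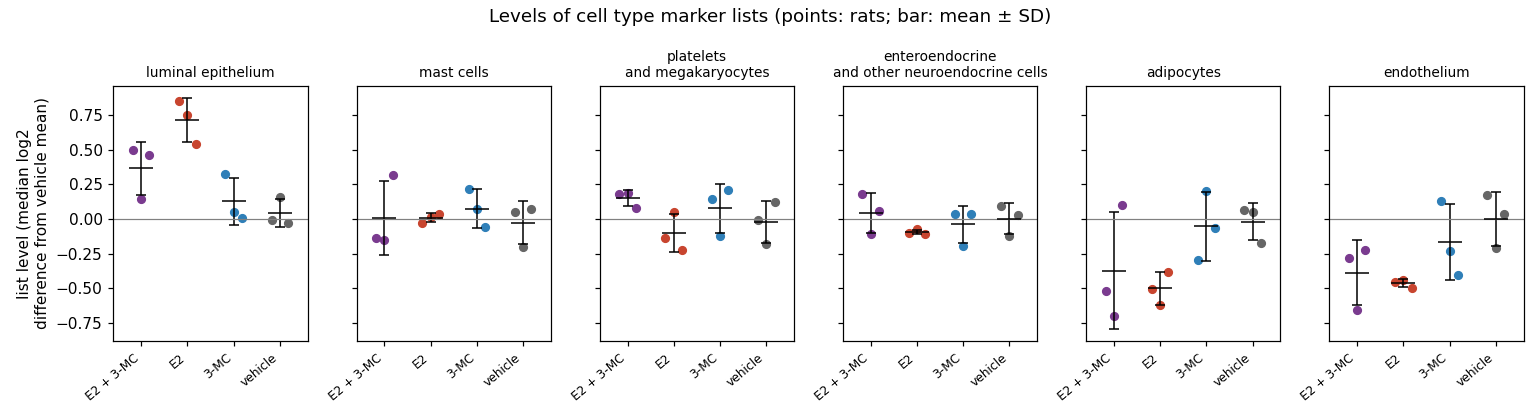
Scores of 6 cell type marker lists in each rat (median over genes of the log2 deviation from vehicle rats), with points for rats 1 to 3 from left to right in each group and bars for the mean ± SD. Luminal markers lie between 0.54 and 0.85 in E2 rats, mast cell markers between -0.03 and 0.04, and endothelial markers between -0.49 and -0.44.

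Markers of other cells that make or carry serotonin did not pass either. None of the 4 tested platelet markers, 4 neuroendocrine markers or 7 neuronal markers passed in E2 against vehicle rats, where the medians of their log2 changes were -0.10, -0.11 and 0.00, beside 0.02 over all probe sets. In that comparison 1.58% of all probe sets passed, a share at which lists of this size would hold few or no calls. For Maob the nearest list was endothelium, with r = 0.864 over 12 arrays and 0.723 with group means taken away. Endothelial markers scored -0.65 to -0.22 in E2 + 3-MC rats, -0.49 to -0.44 in E2 rats, -0.40 to 0.13 in 3-MC rats and -0.21 to 0.18 in vehicle rats, and adipocyte markers -0.70 to 0.10, -0.62 to -0.38, -0.29 to 0.20 and -0.17 to 0.07 in the same groups. Their part in the lower Maob of E2 rats was not tested. Macrophage and skeletal muscle markers varied between rats of 1 group, from -0.62 to 0.94 and from -3.89 to 2.20 over all rats. With either score as a covariate Maob did not pass in E2 against vehicle rats. Its log2 change, -0.70 without a covariate, was -0.67 with macrophages (limma, adjusted p = 0.0552) and -0.70 with skeletal muscle (limma, adjusted p = 0.0623). With group means taken away, Maob correlated with these scores at only r = 0.185 and 0.00411, so either fit could move its change little. The endothelial score, which followed Maob more closely, was not used as a covariate.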

How the data were processed

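Total RNA of integrity number 7 or more from 12 mammary glands was hybridised by the authors to Affymetrix whole-transcript rat gene arrays and, per the methods and submitters' notes, summarised with PLIER after quality checks in Affymetrix Expression Console. The deposited values are linear intensities per probe set, described as quantile normalized, although the array medians differ (85.7 to 109.5), so scaling was tried as an alternative. The number of arrays, 3 a group, limits the precision. Genes were named through the platform annotation: 15310 of 29214 probe sets had 1 symbol, 323 several and 13581 none. The labels give 48 hours of treatment, which is also the span from the first to the last of the methods' 3 treatments 24 hours apart.

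Values were taken as log2(intensity + 16), probe sets with a mean below the 20th percentile (5.69) were left out, and 1 limma model (version 3.58.1, R 4.3.3) with a mean for each of 4 groups gave 6 two-sided comparisons. The methods filtered at the same percentile and fold and used an unpaired test, tried here as the methods' t-test. Tests were checked on simulated data. Intervals are 95% intervals of the fit. Figures used Python 3.11.15 with matplotlib 3.10.9 and pandas 2.3.3.

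Genes and lists were chosen with earlier results of these data known. Named were all 10 serotonin genes, every gene of the 7 surrounding lists that passed in at least 1 comparison, the brightest of the uptake, cofactor and receptor lists, the 5 genes most correlated with Tph1 and with Maob, and markers. Labels give each rat a number without saying that it pairs rats. Deviations from group means correlated between same-numbered 3-MC and vehicle rats at 0.341, 0.442 and 0.564. This was taken as pairing for that comparison on the values alone, and no other 2 groups had all correlations over 0.1. Skeletal muscle scores of rats 1 to 3 were 1.05, 1.70 and -3.67 with 3-MC and 1.82, 2.20 and -3.89 with vehicle. The part of muscle in these correlations was not tested. Alternatives were no limit on dim probe sets, other pseudocounts, rescaling, array weights, 2-group fits, no minimum fold, a replicate block, leaving out each rat, and, chosen after seeing the data, muscle or macrophage scores as covariates. The mean over all probe sets of a gene equals the reported value, since each gene had 1.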

Additional observations from a re-analysis of the deposited data

How the results depend on the processing

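Leaving out 1 rat at a time and 12 other settings (13 for 3-MC against vehicle, 10 for the interaction) turned no direction of a called change. The log2 change of Tph1 in E2 against vehicle rats, given as a description, was 2.01 to 2.53. In that comparison the serotonin genes that passed were 2, and 1 without the limit on dim probe sets, with a pseudocount of 1, with limma on 2 groups, with the methods' t-test and with either covariate, Maob being the one lost (adjusted p-values of 0.00520 to 0.349 over settings). Over these settings the log2 change of Maob was -0.81 to -0.62. Leaving out 1 rat gave 1 to 2 genes. Tph1 was lost with the methods' t-test in E2 + 3-MC against vehicle (0 genes, adjusted p = 0.576) and against 3-MC rats (0 genes, adjusted p = 0.993). Probe sets that passed in E2 against vehicle rats, 370, became 652 with array weights, 644 with the macrophage covariate and 7 with the methods' t-test, and 89 to 449 without 1 rat. In E2 + 3-MC against vehicle rats 38 became 62 with array weights, 0 with the t-test and 23 to 81 without 1 rat. In E2 + 3-MC against E2 rats 0 became 359 with limma on 2 groups, 56 with the macrophage covariate, 7 with array weights, 2 after a second quantile normalization and 0 to 10 without 1 rat, none a serotonin gene. In E2 + 3-MC against 3-MC rats 26 became 42 after a second quantile normalization, 0 with the t-test and 20 to 43 without 1 rat. For the interaction 0 became 57 with the macrophage covariate and 0 to 1 without 1 rat. Causes were not tested. With the replicate number as a block, E2 against vehicle rats gave 479 probe sets and 2 serotonin genes, E2 + 3-MC against vehicle 47 and 1, E2 + 3-MC against 3-MC 28 and 1, and the remaining comparisons 0. In the 3-MC and vehicle rats alone, paired by number only on the values, the block gave 0 probe sets and 0.28 for Tph1 (limma, adjusted p = 0.564). It changed no other call. The signals of Tph2 and Ddc lay among the dimmest 20% of probe sets, where the added 16 compresses changes.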
